A study of Mus musculus with 6 samples.

Results

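Semaphorins are secreted or membrane-bound guidance ligands and plexins are their transmembrane receptors. A set of 10 of these genes was examined in the mammary carcinoma line Mvt1, made up of the ligands Sema3a, Sema3b, Sema3c, Sema3d, Sema3e, Sema4b and Sema7a and the receptors Plxna1, Plxnb2 and Plxnd1. Members were taken by gene symbol from the annotation that the authors gave each read, and the set was chosen by the CPM of Sema3c in CD24+ against CD24- libraries, the contrast described here. Of the 10 symbols, 9 occurred among the 14766 gene annotations of the series, and 8 of these were among the 11125 genes with enough reads to test. Sema3b had too few reads, and Plxnb2 was no annotation in any library, although its transcripts were abundant as described with the receptors.

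Mvt1 is a mouse cell line of strain FVB/N, grown from a mammary tumor with c-Myc and Vegf transgenes under the MMTV promoter. Its cells were stained for the surface protein CD24 and sorted into CD24- and CD24+ groups, which were cultured as adherent cells in the same serum-containing medium with no further treatment. RNA was taken from 3 plates of each group and its poly(A) fraction was sequenced, so the 6 libraries share 1 line and, as far as described, 1 sort. A difference between the groups therefore cannot be told apart from other differences that arose between the 2 sorted populations.

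Class 3 semaphorins are secreted and signal through neuropilins that hold plexins of the A type or Plexin-D1 as the signaling chain, while Sema3e binds Plexin-D1 directly. Class 4 semaphorins span the membrane and act mainly on B-type plexins, and Sema7a is tethered by a lipid anchor and can act through integrins that contain the β1 chain. Inside the cell, plexins inactivate small GTPases of the Ras and Rap families and reach the cytoskeleton through MICAL enzymes, collapsin response mediator proteins (the Dpysl genes) and LIM kinases. In mammary tissue the family has been studied for its part in cell migration, vessel growth and branching of the epithelium.

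The reads that show the genes are given first. Each is the 47-nt read with the most copies, on either strand, within the coding region of a member, written 5′ to 3′ on the strand of the gene, with its position in the mm9 build that the submitters' processing notes name. They are shown because an exact copy of such a read was the unit of counting, and the copies in each library show what such a count looks like. Taking the read with the most copies favors the group in which a gene has more reads, so the absence of such a read from the other group says little, and the levels of the genes follow below.
Sema3c read, chr5:17233237-17233283, plus strand, exon 18 of 18: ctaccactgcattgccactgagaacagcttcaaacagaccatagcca
Sema3a read, chr5:13585080-13585126, plus strand, exon 15 of 17: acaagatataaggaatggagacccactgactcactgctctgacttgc
Sema3e read, chr5:14025938-14025984, plus strand, exon 1 of 17: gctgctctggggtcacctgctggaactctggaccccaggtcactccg
Sema7a read, chr9:57805159-57805205, plus strand, exon 9 of 14: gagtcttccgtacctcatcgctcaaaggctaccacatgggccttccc
Plxna1 read, chr6:89270916-89270962, minus strand, exon 30 of 32: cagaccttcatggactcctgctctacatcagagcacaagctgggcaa
Plxnb2 read, chr15:88987822-88987868, minus strand, exon 34 of 38: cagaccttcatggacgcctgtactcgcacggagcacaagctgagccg

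The Sema3c read was absent from the 3 CD24- libraries and was counted 4, 5 and 9 times in CD24+ replicates 1, 2 and 3. The Sema3a read was likewise absent from the CD24- libraries and was counted 1, 6 and 7 times in the CD24+ libraries, although other reads of Sema3a numbered 73, 86 and 80 in the CD24- libraries. Those of Sema3e and Sema7a were counted 1 and 0 times in CD24- and 7 and 5 times in CD24+ cells, libraries of a group together. By contrast the Plxnb2 read was counted 25, 36 and 23 times in CD24- replicates and 18, 56 and 68 times in CD24+ replicates, of which replicates 2 and 3 were sequenced most deeply. The Plxna1 and Plxnb2 reads hold the same base at 36 of their 47 positions, and an exact match still assigned each to 1 gene.

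The libraries held 9046025 to 25692147 mapped reads, with CD24+ replicate 1 the shallowest, and gene annotations covered 71.8% to 74.3% of them. Gene counts were scaled by edgeR's TMM method and are given as CPM, which relates the reads of a gene to all gene reads of its library. CPM compares 1 gene between libraries and is not corrected for gene length. Cd24a, the gene of the sorted marker, averaged 77.2 ± 7.31 CPM in the CD24+ libraries against 10.2 ± 2.79 CPM in the CD24- libraries (SD, n = 3 each), in the direction of the labels. In edgeR's quasi-likelihood test with Benjamini-Hochberg adjustment at a threshold of 0.05, 46.1% of the tested genes differed between the groups. A share of 23.8% of all tested genes was higher in CD24+ cells and 22.3% was lower. With median coverage rebuilt on GENCODE transcripts from reads of a single gene, after the study's methods but not on its annotation, and limma's test, 34.8% of the genes tested differed. For 57.3% of the tested genes the values of the 2 groups did not overlap. The median log2 fold-change over all tested genes was 0.02.

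Among the ligands, Sema3c, Sema3a, Sema3e, Sema3d and Sema7a were many-fold more abundant in CD24+ cells, while Sema4b was somewhat less abundant. The receptors Plxna1, Plxnd1 and Plxnb2 changed little in comparison. Because this contrast chose the set, the members' values and log2 fold-changes are a description and carry no test. All 8 tested members had groups that did not overlap, against 57.3% of all tested genes, and this count is likewise set by the choice. On reads that matched the transcripts of a single gene, a count described with Plxnb2, the groups of 7 of 9 members were apart, against 56.7% of the genes tested in that count, and those of Plxnd1 and Plxnb2 overlapped.

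Sema3c, a secreted ligand of neuropilin and plexin receptors, had 2.53, 2.18 and 3.04 CPM in CD24- replicates 1, 2 and 3 and 69.6, 57.1 and 85.6 CPM in CD24+ replicates 1, 2 and 3. Every CD24+ library lay far above every CD24- library, and the CD24- values rested on 24, 23 and 27 reads. The log2 fold-change of CD24+ over CD24- was 4.78 (standard error, SE, 0.20), or 27.5-fold. Only 18 of the 11125 tested genes had a larger one. The gene spans 17574281 to 17730268 on the plus strand of chromosome 5 in GRCm38.

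Sema3a, the founding class 3 ligand that repels growing axons, was at 7.69, 8.15 and 9.02 CPM in the CD24- replicates and at 85.2, 102 and 90.3 CPM in the CD24+ replicates. Its groups were tight and well apart. The log2 fold-change was 3.49 (SE 0.12).

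Sema3e, the ligand that binds Plexin-D1 without a neuropilin, showed 2.11, 2.37 and 3.50 CPM in the CD24- replicates against 35.4, 35.7 and 42.5 CPM in the CD24+ replicates. The groups did not overlap, and the log2 fold-change was 3.85 (SE 0.18).

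Sema3d, a further class 3 ligand, gave 1.47, 1.61 and 1.13 CPM in the CD24- replicates and 10.7, 7.63 and 16.2 CPM in the CD24+ replicates, with a log2 fold-change of 3.03 (SE 0.34). The groups were apart, but the CD24+ libraries differed by more, relative to their mean, than those of the other tested ligands. Much of the CD24- signal did not match Sema3d transcripts. Of the reads annotated to it in CD24- replicates 1, 2 and 3, 6, 14 and 8 matched only Gm8925, a different gene model of GENCODE, and 7, 2 and 1 matched only Sema3d. In the CD24+ replicates 53, 101 and 268 reads matched only Sema3d. On reads that matched no gene but Sema3d, the log2 fold-change was 4.18 (SE 0.46).

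Sema7a, the lipid-anchored semaphorin, was close to absent in CD24- cells. It had 0.421, 0.664 and 0.451 CPM there, from 15 reads in all, and 13.1, 12.0 and 13.2 CPM in the CD24+ replicates. Its log2 fold-change was 4.59 (SE 0.24). Of those 15 reads 8 matched its transcripts, and on reads of its transcripts alone the log2 fold-change was 5.31 (SE 0.30). Leaving out CD24- replicate 2, the library with the most Sema7a reads of its group, gave 4.83.

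Sema3b, another class 3 ligand, had 0, 5 and 2 reads in the CD24- replicates and 3, 4 and 12 reads in the CD24+ replicates. At this depth no difference of Sema3b could be detected, and it was not tested in the main fit. Without the filter on low counts its log2 fold-change was 0.85 (SE 0.78).

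The transmembrane ligand Sema4b went the other way. It had 113, 114 and 111 CPM in the CD24- replicates and 80.4, 92.1 and 82.9 CPM in the CD24+ replicates. The groups did not overlap and the log2 fold-change was -0.40 (SE 0.08).

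**Figure D1:**
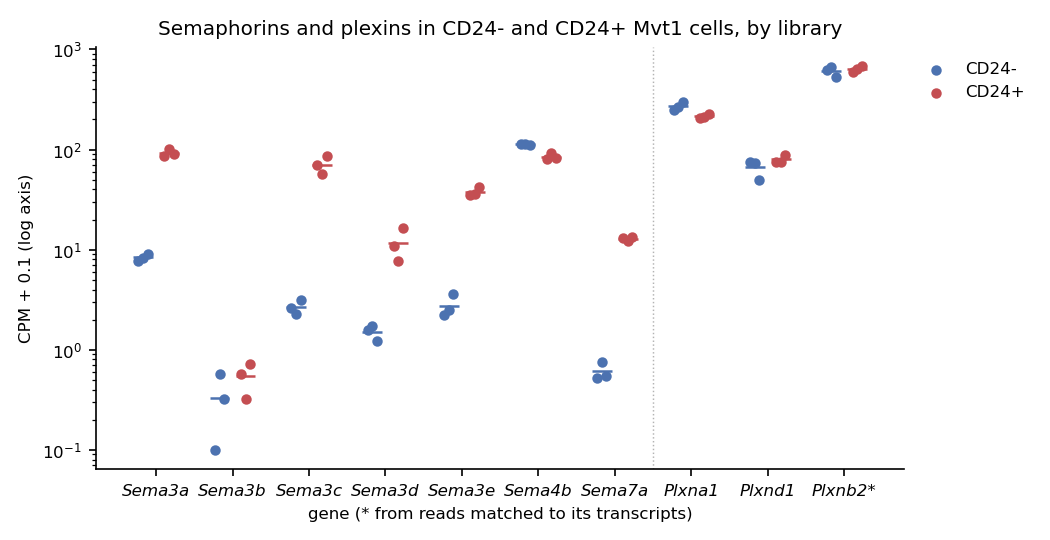
Level of each member in each of the 6 libraries, as CPM plus 0.1 on a log axis, with CD24- libraries in blue, CD24+ libraries in red and a bar at the mean of each group. Sema3a, Sema3c, Sema3d, Sema3e and Sema7a are separated by a wide gap, while the plexins right of the dotted line lie close together. Plxnb2 is drawn from reads that match only its transcripts, since no read was annotated to it.

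Plxna1, an A-type plexin, had 247, 264 and 297 CPM in the CD24- replicates and 206, 212 and 227 CPM in the CD24+ replicates, a log2 fold-change of -0.32 (SE 0.09). Its groups were apart by a small margin. Of the 22409 reads that matched only Plxna1 transcripts, 8555 carried no annotation. A share of 15.96% of the reads annotated to Plxna1, or 2738 reads, also matched the overlapping gene model Gm26811, from which they cannot be told apart in counts without strand, and 475 matched no transcript. Counting only reads that matched Plxna1 alone, which adds the unannotated reads and leaves out those shared or unmatched, gave 341, 356 and 395 CPM against 267, 283 and 300 CPM and a log2 fold-change of -0.36 (SE 0.09).

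Plxnd1, the receptor of Sema3e, was at 75.1, 73.8 and 49.7 CPM in the CD24- replicates and at 75.6, 75.8 and 87.7 CPM in the CD24+ replicates. CD24- replicate 3 stood below the other libraries, and the remaining CD24- values lay just under the lowest CD24+ value. The log2 fold-change was 0.27 (SE 0.15). It was 0.10 (SE 0.09) without CD24- replicate 3 and 0.37 (SE 0.16) without CD24- replicate 1, and between these with any other library left out. On reads of a single gene the groups overlapped.

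Plxnb2, a B-type plexin, was not annotated in the deposited files, so its values come from another count. The reads were matched by exact sequence to the transcripts of GENCODE M21, and those that matched a single gene were summed. On this count Plxnb2 had 628, 667 and 532 CPM in the CD24- replicates and 591, 631 and 680 CPM in the CD24+ replicates. The groups overlapped, whereas 56.7% of the genes tested in this count had groups apart, and the log2 fold-change was 0.06 (SE 0.10). With the rebuilt median coverage it was -0.02 (SE 0.09). These were 44652 reads over the 6 libraries, of which 44629 carried no annotation.

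**Figure D2:**
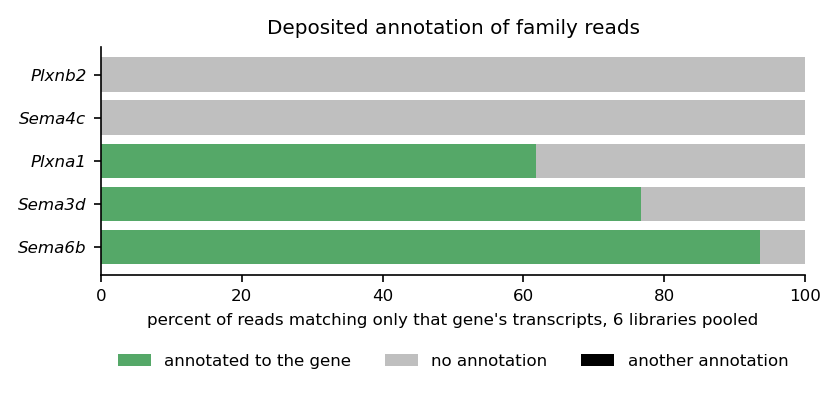
Share of the reads matching only the transcripts of a gene that the deposited files annotate to that gene (green) or leave without annotation (grey), over the 6 libraries together. Plxnb2 and Sema4c are grey throughout, and 38.2% of the Plxna1 reads, 23.3% of the Sema3d reads and 6.38% of the Sema6b reads are grey.

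The reads of the 5 ligands higher in CD24+ cells were spread along their transcripts. Along the Sema3c transcript, the mean of the CD24+ libraries exceeded that of the CD24- libraries in 55 of 55 windows of 100 nt. The same held for 58 of 59 windows of Sema3a, 68 of 69 of Sema3e, 62 of 63 of Sema3d and 33 of 33 of Sema7a. These were the reads that gave the fold-changes, so near-complete counts follow from the size of the changes. Any CD24- read fell in 42 windows of Sema3c, 52 of Sema3a, 40 of Sema3e, 15 of Sema3d and 8 of Sema7a. By comparison 2 of 40 windows of Sema4b, 6 of 90 of Plxna1 and 53 of 69 of Plxnd1 were higher in CD24+ cells. Reads of Plxna1 occurred in 82 of its windows in each group. For Plxnb2 the windows were divided, with 46 of 65 higher.

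The most counted read of a gene holds a larger share where the gene has few reads, so its share does not measure repeated copies. Distinct reads per 100 annotated reads in CD24+ replicates 1, 2 and 3 were 98.8, 94.3 and 91.7 for Sema7a. They were 91.1, 71.8 and 73.8 for Sema3a and 88.5, 79.6 and 74.1 for Sema3c. In the CD24+ libraries the most counted read made up 0.49% to 0.90% of the reads annotated to Sema3c, 0.52% to 0.66% of those of Sema3a, 0.62% to 1.33% of those of Sema3e and 1.42% to 2.41% of those of Sema7a. For Sema3d the most counted read made up 4.84% to 10.3% in the CD24+ libraries. In CD24- replicates 1, 2 and 3 it made up 21.4%, 52.9% and 40%, which are 3 of 14, 9 of 17 and 4 of 10 reads. The reads annotated to a gene that matched only its own transcripts were 97.1% to 99.3% for Sema3c, 97.3% to 98.7% for Sema3e, 93.7% to 94.9% for Sema3a, 88.1% to 95.2% for Sema7a and 74.8% to 86.5% for Sema3d in the CD24+ libraries. The share of Sema3c transcript reads centered in the 3′ UTR was 34.6%, 42.3% and 51.9% in the CD24- replicates and 47.03%, 48.7% and 48.5% in the CD24+ replicates, which overlap. The corresponding share of Sema3a was 38.6% to 59.5% in CD24- cells and 49.4% to 53.1% in CD24+ cells. Those of Sema3e and Sema7a overlapped as well, that of Sema7a in CD24- replicates from 1, 4 and 3 reads. Other shares were apart. The share centered in the coding region was 48.1% to 61.5% for Sema3c in CD24- and 47.2% to 47.8% in CD24+ libraries. For Sema3e this share was 45%, 42.3% and 44.4% in the CD24- replicates against 57.4%, 55.7% and 59.02% in the CD24+ replicates, higher by 13.5 percentage points in CD24+ cells. The CD24- shares rest on only 26, 26 and 27 transcript reads of Sema3c and 20, 26 and 27 of Sema3e, so they are imprecise. The 3′ UTR share of Sema3d was 66.7%, 75% and 100% in the CD24- replicates, from 12, 4 and 3 reads, and 60.6%, 63.97% and 56.7% in the CD24+ replicates, and its coding share was apart in the other direction. A permutation test of 3 libraries against 3 cannot give an exact two-sided p below 0.1, so none of these shares could have passed a threshold of 0.05.

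**Figure D3:**
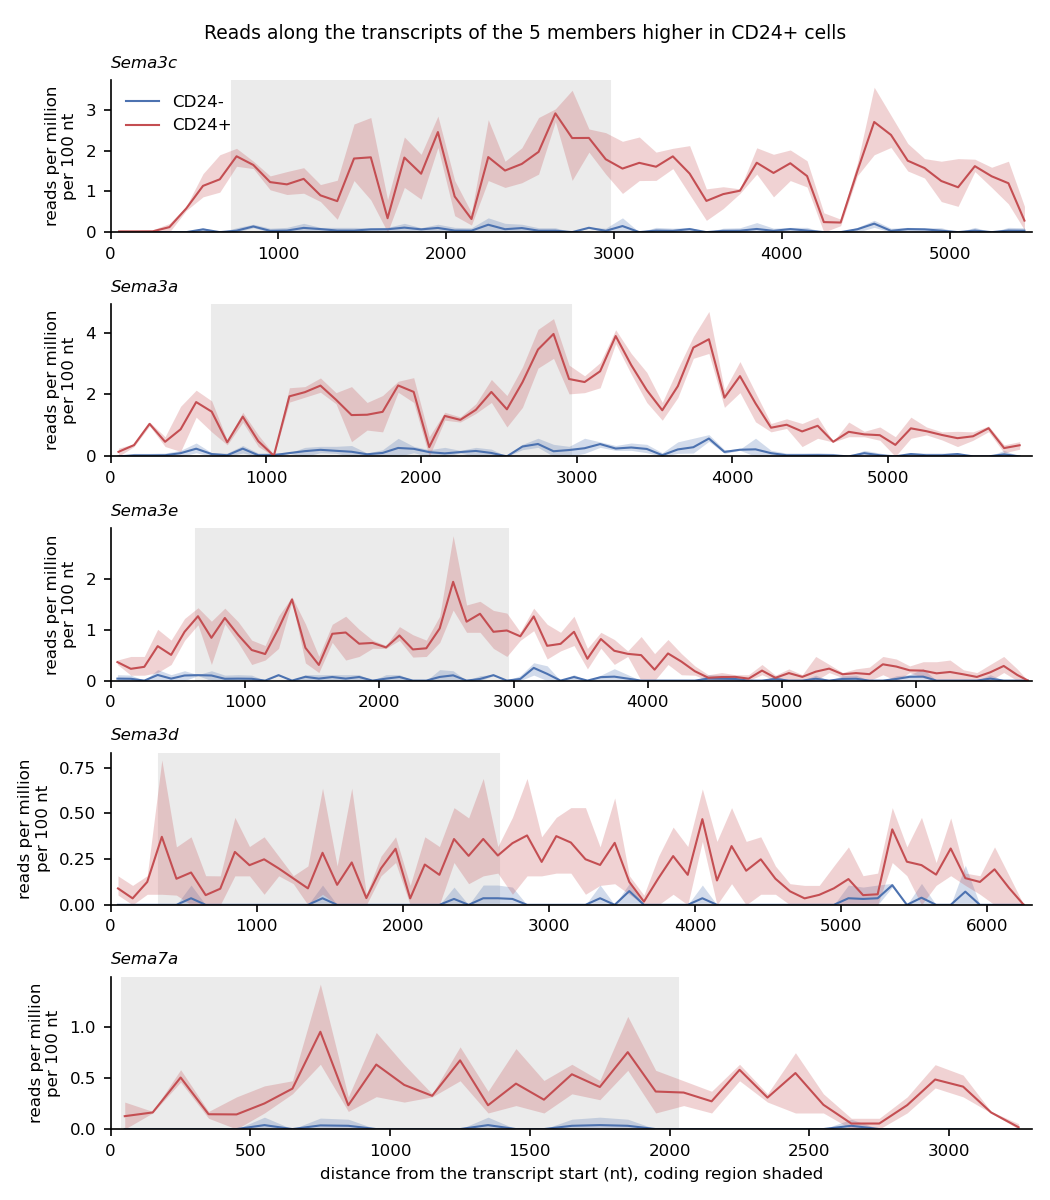
Reads per 100 nt, scaled to library totals as RPM, along 1 transcript of each of the 5 ligands higher in CD24+ cells, with lines for the mean of 3 libraries, bands for their range and the coding region shaded. The CD24+ line (red) runs above the CD24- line (blue) over nearly the whole length of each transcript and comes close to 0 over the first windows of Sema3c and in single windows of the other ligands.

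Dividing by transcript length allows a rough comparison of the genes with each other. On this scale, reads of a single gene per kilobase of 1 GENCODE transcript, scaled to library totals as CPM is, Plxnb2 was the highest of all semaphorins, plexins and neuropilins in both groups, with 93.5 ± 10.6 in the CD24- and 97.4 ± 6.87 in the CD24+ libraries (SD, n = 3 each). Nrp2, Plxna1, Sema3f and Sema4b followed in this order in both groups. The level of Plxna1 per kilobase was 40.3 ± 3.07 in CD24- cells and 31.4 ± 1.85 in CD24+ cells, that of Sema4b was 28.1 ± 0.838 and 21.1 ± 1.32, and that of Plxnd1 was 9.60 ± 2.02 and 11.5 ± 1.05. On this scale Plxna1 was above Sema3f in each of the 6 libraries. In CD24- cells their ranges were apart, and in CD24+ cells the ranges of Plxna1 (29.5 to 33.2) and Sema3f (27.7 to 31.2) overlapped. Most reads across exon junctions were lost, and the length was not corrected for this. With 18 exons in 3395 nt, Sema3f loses a larger share than Plxna1 with 32 exons in 9034 nt. Plxna1 in turn lacks the reads shared with Gm26811. The order of Plxna1 and Sema3f is therefore not settled.

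The ligands that differed most came from far down this order. Per kilobase, Sema3a was at 1.35 ± 0.120 in CD24- cells and 14.9 ± 1.59 in CD24+ cells, Sema3c at 0.516 ± 0.0584 and 13.4 ± 2.61, and Sema3e at 0.382 and 5.50. Sema3d had 0.108 and 1.94, and Sema7a had 0.0858 and 3.58. In CD24+ cells Sema3a and Sema3c were next to each other and their ranges overlapped, 13.5 to 16.7 and 11.0 to 16.2. Even there, both stayed below Sema3f in every library.

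Summed over the 7 class 3 semaphorins, the level per kilobase was 32.1, 32.9 and 33.4 in the CD24- replicates and 61.5, 63.2 and 71.2 in the CD24+ replicates, a ratio of 1.99 between the means. Sema3f, which is no member, made up 92.6% of the sum in CD24- cells and 44.9% in CD24+ cells, at much the same level of its own. The share of Sema3c went from 1.57% to 20.6% and that of Sema3a from 4.11% to 22.9%. The makeup of the class 3 pool thus differed between the groups from almost wholly Sema3f to a mixture led by Sema3f, Sema3a and Sema3c. Over all 9 plexins the sum was 154 ± 11.4 in CD24- cells and 145 ± 9.99 in CD24+ cells, a ratio of 0.946, and Plxnb2 held 60.8% and 67.0% of it.

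**Figure D4:**
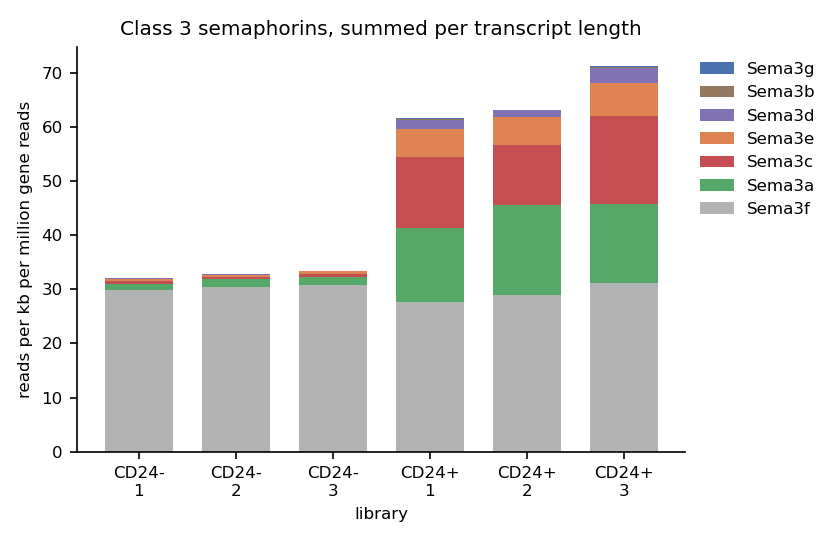
Level of the 7 class 3 semaphorins in each library as stacked bars, in reads per kilobase of transcript, scaled to library totals. The grey Sema3f segment keeps a height of 27.7 to 31.2 in all libraries, and the CD24+ bars are taller by the segments of Sema3a, Sema3c, Sema3e and Sema3d.

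The 4 class 3 members that were higher in CD24+ cells all lie on chromosome 5. In mm9 the median positions of their reads fall in the order Sema3d, Sema3a, Sema3e and Sema3c over 4.65 Mb. No other tested gene lay within 500 kb of any of them. In a wider window, from 1 Mb before Sema3d to 1 Mb after Sema3c, chosen after the narrower one was found empty, 1 other tested gene occurred. This was Cacna2d1, a calcium channel subunit, between Sema3e and Sema3c at 1.38 Mb from Sema3c. Its log2 fold-change was 0.28 (SE 0.12, adjusted p = 0.0886 in edgeR's test), so it did not pass. Of the 717 tested genes of chromosome 5, 133 were higher and 155 lower in CD24+ cells, against 23.8% and 22.3% of all tested genes, with a median log2 fold-change of 0.00.

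The windows before the starts of Sema3d, Sema3a and Sema3e were close in base composition, with 46.8%, 40.8% and 48% G and C. They are shown as the 250 bases before the RefSeq gene start in GRCm38.p6, plus strand, with matches to the motifs searched in capitals. The corresponding Sema3c window lies within a first exon of GENCODE and is not printed. The Sema3a window lies in no exon but within the GENCODE gene, some transcripts of which start further upstream, at 13125414. The motifs were the E-box CACGTG, the GC box GGGCGG, the CCAAT box CCAAT and the TATA box TATAAA, each on both strands.
Sema3d, chr5:12382916-12383165: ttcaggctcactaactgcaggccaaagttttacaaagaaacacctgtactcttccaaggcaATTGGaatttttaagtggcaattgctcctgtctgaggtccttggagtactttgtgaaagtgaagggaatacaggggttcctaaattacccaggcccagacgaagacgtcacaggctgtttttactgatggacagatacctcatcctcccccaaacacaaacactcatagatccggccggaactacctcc
Sema3a, chr5:13396534-13396783: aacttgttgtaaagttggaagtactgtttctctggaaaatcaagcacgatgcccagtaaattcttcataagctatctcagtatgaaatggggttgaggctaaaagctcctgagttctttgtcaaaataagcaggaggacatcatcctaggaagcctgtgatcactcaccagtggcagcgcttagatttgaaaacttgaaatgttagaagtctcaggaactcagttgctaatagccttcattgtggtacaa
Sema3e, chr5:14025026-14025275: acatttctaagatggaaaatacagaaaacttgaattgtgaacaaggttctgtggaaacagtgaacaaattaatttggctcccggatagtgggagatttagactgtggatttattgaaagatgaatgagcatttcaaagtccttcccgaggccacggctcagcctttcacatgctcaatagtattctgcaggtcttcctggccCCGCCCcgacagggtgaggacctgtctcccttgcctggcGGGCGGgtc

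The Sema3c window held 39 CpG dinucleotides and 78.4% G and C, against 4, 2 and 7 CpG in those of Sema3d, Sema3a and Sema3e and a median of 6 over all promoters. It had 3 GC boxes and the Sema3e window had 2, while Sema3d had 1 CCAAT box and Sema3a none of these motifs. The Sema7a window, on chromosome 9, had 2 GC boxes and 17 CpG. Among 32851 promoters of the same length, 32.7% held a GC box, 33.8% a CCAAT box, 12.4% a TATA box and 6.02% this E-box. None of the 4 motifs occurred in all 5 windows. A match says only that these letters occur.

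Among the semaphorins outside the set, those with enough reads moved in both directions. Sema5a, a transmembrane semaphorin with thrombospondin repeats, had 33.6, 34.04 and 24.8 CPM in the CD24- replicates and 210, 179 and 262 CPM in the CD24+ replicates. The groups were far apart and Sema5a was higher in CD24+ cells, with a log2 fold-change of 2.81 (SE 0.16, adjusted p = 5.3e-07 in edgeR's test). After the 5 members it was the largest rise of the family.

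The class 6 semaphorins are transmembrane ligands of A-type plexins. Sema6a was lower in CD24+ cells (adjusted p = 0.000243 by edgeR, log2 fold-change -2.40), with a mean of 2.46 ± 0.572 CPM against 0.432 ± 0.103 CPM (CD24- first, SD, n = 3 each). Sema6b was also lower, at 40.6 ± 4.32 and 18.2 ± 2.38 CPM (adjusted p = 4.68e-05 by edgeR, log2 fold-change -1.17). Sema6c and Sema6d did not pass, with log2 fold-changes of -0.49 and -0.03 (adjusted p = 0.37 and 0.876, edgeR). Sema4d, the classical ligand of Plexin-B1, was lower as well, at 61.8 ± 8.96 and 40.8 ± 0.83 CPM (adjusted p = 0.00156 by edgeR, log2 fold-change -0.60).

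Sema3f, the most abundant class 3 ligand, showed no detectable difference, with 123 ± 1.71 CPM against 116 ± 10.0 CPM (adjusted p = 0.407 by edgeR, log2 fold-change -0.09). Sema4c was not annotated in the files. Its 1088 transcript reads gave 15.7 ± 3.82 and 14.8 ± 1.27 CPM, a log2 fold-change of -0.07 (SE 0.18). Sema3g, Sema4a, Sema4f and Sema4g had too few reads for the main fit, with 14, 8, 44 and 52 reads over all libraries.

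Sema5b passed the test on the deposited annotation with a log2 fold-change of 0.44 (adjusted p = 0.00605, edgeR), but none of these reads matched its transcripts. Of the reads annotated to it, 61.3% matched only transcripts of Rps21, a ribosomal protein gene, and 38.6% matched Rps21 together with the gene model Gm5963. The remaining 0.130% matched no transcript. No level of Sema5b can be given from these counts. Of the 8 other semaphorins tested, 2 were higher in CD24+ cells with Sema5b included and 3 lower, against 23.8% and 22.3% of all tested genes. On reads of a single gene, 1 was higher and 3 were lower of 8, against 23.9% and 21.7% of 12117 genes tested in that count.

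Of the other plexins, Plxna2 and Plxna3 had enough reads and both were lower in CD24+ cells, as were 22.3% of all tested genes. Plxna2 was at 92.2, 97.9 and 78.8 CPM in the CD24- replicates and 38.7, 45.6 and 37.3 CPM in the CD24+ replicates, a log2 fold-change of -1.14 (adjusted p = 1.98e-05, edgeR). Plxna3 had 20.5 ± 4.22 and 12.2 ± 2.17 CPM (adjusted p = 0.00754 by edgeR, log2 fold-change -0.72). It lost this call when each distinct read was counted once (adjusted p = 0.0677) and with the rebuilt median coverage (adjusted p = 0.204 in limma's test). That estimate adds 10 to the coverage, which draws the ratio of genes with low coverage toward 1. Plxna3 had 62 to 259 reads of a single gene per library, so the loss of its call there says little. Plxnb1, Plxnb3, Plxnc1 and Plxna4 had 21, 53, 24 and 9 reads in all and did not pass the filter on low counts of the main fit. They entered only fits without this filter, whose values for them are not given here. Plxnb1 and Plxnc1 are the receptors usually named for Sema4d and Sema7a.

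**Figure D5:**
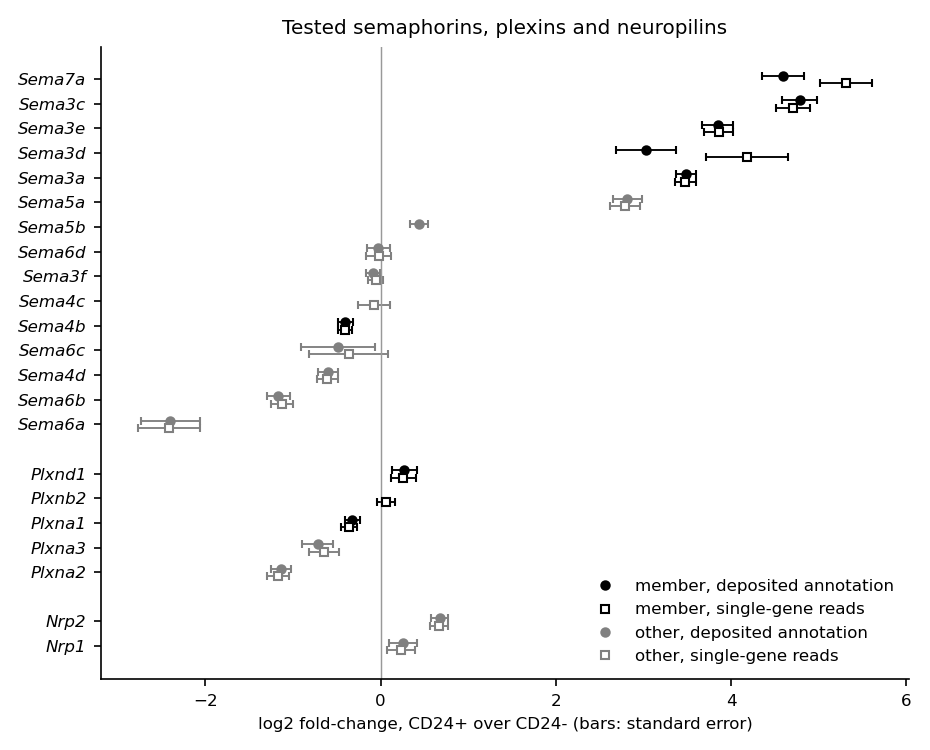
Log2 fold-change of CD24+ over CD24- cells for each tested semaphorin, plexin and neuropilin, with bars for the standard error. Filled circles use the deposited annotation, open squares use reads of a single GENCODE gene, black marks the members and grey the other genes. The 5 ligands from Sema7a down to Sema3a lie above 3 in both counts, Sema5a follows, and the plexins fall between -1.17 and 0.27.

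The coreceptors were listed from general knowledge, and 6 of 12 had enough reads. CD24+ cells had more of 3 of them and less of 2 by edgeR's test, in which 23.8% of all tested genes were higher and 22.3% lower. Nrp2, a neuropilin that binds Sema3c and Sema3f, had 333, 339 and 409 CPM in the CD24- replicates and 548, 604 and 570 CPM in the CD24+ replicates. Its groups were apart, and the log2 fold-change was 0.67 (SE 0.10, adjusted p = 0.000272, edgeR). Nrp1, the neuropilin of Sema3a, had 58.4 ± 8.85 and 69.0 ± 15.2 CPM and did not pass (adjusted p = 0.206 by edgeR, log2 fold-change 0.26).

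Both chains of an integrin that can bind Sema7a were higher. Itga1, the α1 chain, went from 0.859 ± 0.209 to 4.71 ± 0.585 CPM (adjusted p = 5.25e-05 by edgeR, log2 fold-change 2.44). Of the 25 reads annotated to it in CD24- and 204 in CD24+ libraries, 124 in all matched its transcripts alone. On reads of a single gene it had 9, 6 and 1 reads in the CD24- replicates and a log2 fold-change of 2.96 (SE 0.45). Itgb1, the β1 chain, was at 932 ± 53.7 and 1180 ± 66.9 CPM (log2 fold-change 0.34, adjusted p = 0.00719, edgeR). It lost its call without CD24- replicate 1 (adjusted p = 0.0533), with distinct reads counted once (adjusted p = 0.858) and with median coverage (adjusted p = 0.167, limma). The number of distinct reads of a gene is bounded by its length. At 7891 to 22769 Itgb1 reads per library, distinct reads are therefore a weak measure of its level. The receptor kinases Met and Erbb2, which pair with B-type plexins, were lower. Met had a log2 fold-change of -0.63 (adjusted p = 0.00198, edgeR). Erbb2 had -0.29 (adjusted p = 0.0406, edgeR) and lost its call with 5 of the 6 libraries left out in turn, with adjusted p from 0.0658 to 0.108.

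Of the 31 genes listed for signaling below plexins, 27 were tested, 9 were higher in CD24+ cells and 5 lower, against 23.8% and 22.3% of all tested genes. The largest rise was that of Dpysl3, a collapsin response mediator protein, which had 0.211, 0.379 and 0 CPM in the CD24- replicates and 9.92, 5.08 and 8.70 CPM in the CD24+ replicates. The CD24- value rests on a few reads, so its log2 fold-change of 5.15 (SE 0.52, adjusted p = 2.31e-05, edgeR) is imprecise. It was 4.21 on reads of a single gene. Its relative Dpysl2 was lower, at 116 ± 12.1 and 64.8 ± 11.1 CPM (adjusted p = 0.000394 by edgeR, log2 fold-change -0.83).

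Sh3bp1, a GTPase-activating protein for Rac that was found with Plexin-D1, was higher with 7.59 ± 2.13 and 40.1 ± 1.91 CPM (adjusted p = 1.88e-06 by edgeR, log2 fold-change 2.39). Of the 223 reads annotated to it in CD24- and 1710 in CD24+ libraries, 594 in all matched its transcripts alone, and on reads of a single gene it had 2.57 ± 0.558 and 12.6 ± 0.633 CPM with a log2 fold-change of 2.27. Fyn, a kinase of the Sema3a pathway, had a log2 fold-change of 1.44 (adjusted p = 9.99e-06, edgeR). The other falls named were Mical3, an oxidase of actin (adjusted p = 0.0112 by edgeR, log2 fold-change -0.59), and the small GTPase Rhod (-0.44, adjusted p = 0.00512, edgeR). Of the 5223 reads that matched only Mical3 transcripts, 3690 carried no annotation. On reads of a single gene the log2 fold-change of Mical3 was -0.34 (adjusted p = 0.0238, edgeR). Counting each distinct read once removed the calls of Mical3 and Rhod, with adjusted p of 0.0787 and 0.0926 (edgeR). Neither was called with median coverage, with adjusted p of 0.276 and 0.0638 (limma).

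Of the proteases that mature or shed semaphorins, 6 of 8 were tested, 1 was higher and 5 did not pass, against 23.8% of all tested genes higher and 22.3% lower. On reads of a single gene 7 were tested, Mmp14 and Adamts1 were higher, Pcsk6 was lower and 4 did not pass, against 23.9% and 21.7%. The higher one was Mmp14, a membrane metalloproteinase that sheds Sema4d, at 65.6 ± 7.62 and 141 ± 4.41 CPM (log2 fold-change 1.10, adjusted p = 8.01e-06, edgeR). With the rebuilt median coverage its log2 fold-change was 0.03 and the call was lost (adjusted p = 0.501, limma). Adamts1, a secreted metalloproteinase, had a log2 fold-change of 0.49 on the deposited annotation (adjusted p = 0.0547, edgeR) and 0.56 on reads of a single gene (adjusted p = 0.026, edgeR). Furin, which cleaves class 3 semaphorins, had 194 ± 6.09 and 210 ± 7.25 CPM (adjusted p = 0.224 by edgeR, log2 fold-change 0.11). Over all 70 listed pathway genes outside the set, 49 were tested, 15 were higher, 12 were lower and 22 did not pass, against 23.8% and 22.3% of all tested genes, and their median log2 fold-change was 0.05 beside 0.02 for all tested genes. The 15 include Sema5b, of which no level can be given. On reads of a single gene 50 were tested, 14 were higher and 12 lower, against 23.9% and 21.7%.

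Patterns over the 6 libraries were compared with that of Sema3c by Euclidean distance of log2 of CPM plus 1, centered on each gene's mean. Among 9303 other genes with a log2 of mean CPM of at least 3, the nearest were Prrx1, Trim35, Col5a2, Aldh1l2 and Angpt1. Their distances were 0.478, 0.514, 0.679, 0.725 and 0.735 log2 units. Prrx1, a homeobox factor of mesenchyme, had 4.63, 4.65 and 4.74 CPM in the CD24- replicates and 85.0, 76.6 and 106 CPM in the CD24+ replicates. As in Sema3c, CD24+ replicate 2 was the lowest of its group and replicate 3 the highest. Col5a2 encodes a fibrillar collagen and Angpt1 a ligand of the endothelial receptor Tie2.

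Markers of cell types moved with the groups too. The epithelial keratins Krt8 and Krt18 were abundant in both groups and lower in CD24+ cells, and the summed level of the 6 epithelial markers was 1836 to 2029 CPM in CD24- and 756 to 899 CPM in CD24+ libraries. Epcam and Cdh1 had 6 and 2 reads over all libraries, so these defining epithelial markers were all but absent in both groups. The basal keratins Krt5 and Krt14 of the list had 0 reads in CD24- and 1 and 3 reads in CD24+ libraries. The summed epithelial level is thus almost wholly that of Krt8 and Krt18. Of the fibroblast markers 4 of 5 tested were higher in CD24+ cells, against 23.8% of all tested genes. Pdgfrb led at 4.82 ± 1.24 and 66.7 ± 14.7 CPM. Col1a1 and Col1a2 reached only 3.20 and 1.58 CPM on average in CD24+ cells, the groups of Pdgfra overlapped, and Thy1 had no reads. The summed level of the fibroblast list, mostly Vim, was 3597 to 4465 and 4121 to 4995 CPM. Endothelial markers summed to 2.71 to 4.55 and 0.786 to 2.05 CPM, and to 2.11 to 3.01 and 0.425 to 0.950 CPM on reads of a single gene, and of the 2 tested Cdh5 was lower in CD24+ cells (adjusted p = 0.000278 by edgeR, log2 fold-change -3.23). The blood-cell list summed to 46.7 to 80.6 and 6.95 to 9.44 CPM, almost all of it Cd68. Itgam, the myeloid integrin chain of that list, had 36, 47 and 29 reads in the CD24- replicates and 0, 0 and 1 in the CD24+ replicates and was lower in CD24+ cells (adjusted p = 3.58e-06 by edgeR). Only 38 of these reads matched Itgam transcripts alone, and on reads of a single gene it had 14, 16 and 11 reads in the CD24- replicates and 0 in each CD24+ replicate. Ptprc, which marks blood cells at large, had 2 reads in all. The part of these differences in the levels of the semaphorins was not tested, and fewer cells of a kind cannot be told apart from less RNA per cell in such bulk libraries.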

How the data were processed

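Poly(A) RNA of 3 plates of CD24- and 3 of CD24+ Mvt1 cells was sequenced by the authors to 51 nt from an unstranded kit. The authors cut 2 nt from each end, collapsed identical 47-nt reads, kept those that matched mouse genomic sequence without a mismatch and gave each read 1 annotation. The deposited values are counts of each distinct read, not normalized and not pooled. The submitters' processing notes name mm9, and no source used here gives the mapping tool or the annotation. Most reads across exon junctions and over variants were lost by exact matching, and reads of near-identical copies or overlapping genes are uncertain. The median coverage, quantile normalization and regularizer of 10 of the study come after the deposited counts. They were rebuilt here only as an alternative, on 1 GENCODE transcript per gene and reads of a single gene.

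Counts were summed per symbol, with repeat, noncoding and unannotated reads left out. All genes passing filterByExpr were tested with edgeR 4.0.16 in R 4.3.3, by its quasi-likelihood F test after TMM scaling, with Benjamini-Hochberg adjusted p-values and a threshold of 0.05. The standard error is the log2 fold-change divided by the root of F. Every read was also matched on either strand to GENCODE M21 transcripts (GRCm38), and reads of 1 gene were counted anew. Sequences before gene starts are RefSeq's. On simulated counts with 200 genes changed 4-fold of 11125, 100% were recovered and 0.111% of unchanged genes called. The changed genes were drawn only above a minimum mean CPM, and all genes shared a common dispersion. Far fewer genes were changed than were called in the data, so recovery of low or more variable genes was not tested.

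The members, the lists of pathway genes and markers and the tests were chosen with earlier results of these data known. Genes named are the members, other semaphorins, plexins and neuropilins with reads, the 3 largest rises and 3 largest falls among passing genes of the coreceptor, signaling and protease lists, the 5 genes nearest to Sema3c and genes within 500 kb of the chromosome 5 members. Furin, Adamts1, Pcsk5, Pcsk6, Pcsk7, Cacna2d1 and the cell type markers were named outside this rule, after their values were seen. Alternatives were DESeq2 1.42.0, other scaling and filters, distinct reads counted once, reads of a single gene, the rebuilt median coverage with limma 3.58.1, a replicate block, equal depth and each library left out. Counts of libraries of 1 group differed beyond sampling noise, with a chi-square of 1.75 or more per degree of freedom, and each was kept as a replicate. No separate sorts are described, so errors and p-values measure the spread between plates. Read totals limit precision most for genes at a few reads, above all for Sema3c, Sema3d, Sema3e and Sema7a in the CD24- libraries and for low genes in CD24+ replicate 1, the shallowest library.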

Additional observations from a re-analysis of the deposited data

Results flagged for a closer look

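Reads that matched the transcripts of 5 semaphorin and plexin genes only, but carried no annotation, lay outside the deposited gene counts. There were 44629 such reads of Plxnb2, 8555 of Plxna1, 1088 of Sema4c, 131 of Sema3d and 124 of Sema6b over the 6 libraries. They were listed because each total exceeds 100 reads. On reads of a single gene, a count that includes them and leaves out annotated reads that match another gene or no transcript, the log2 fold-change of Sema3d was 4.18 against 3.03 on the deposited annotation, that of Plxna1 was -0.36 against -0.32 and that of Sema6b was -1.13 against -1.17. The part of the unannotated reads alone in these changes was not tested.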

How the results depend on the processing

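No log2 fold-change of the 8 members tested on the deposited annotation changed sign under any of the 15 alternatives in which it could be computed. The filter of at least 1 CPM in 3 libraries kept the same number of genes, 11125, with the same values as the main fit, so it adds no information. Plxnb2, counted only on reads of a single gene at 0.06, had -0.02 with rebuilt median coverage. The log2 fold-change of Sema3c was 4.60 to 4.79 on the count-based alternatives, and 4.60 to 4.91 with a library left out. Median coverage, rebuilt on GENCODE transcripts from reads of a single gene and so not on the study's annotation, with the study's regularizer of 10, quantile normalization and limma gave 0.79 for Sema3c, 0.76 for Sema3a, 0.26 for Sema3e, 0.22 for Sema7a, -0.32 for Sema4b and -0.22 for Plxna1. By its construction the added 10 draws the ratio of genes with low coverage toward 1. Sema3d could not be tested there. That estimate called 3132 of 9008 genes against 5130 of 11125, with 16.7% of its tested genes higher and 18% lower. Of the pathway genes 8 were higher and 6 lower in it, against 15 and 12 in the main fit. Among the calls lost were those of Plxna3, Itgb1, Mical3, Rhod and Mmp14, which were tested in it. For the other calls missing there, a loss is not told apart here from a gene that was not tested. Counting each distinct read once called 3695 of 11078 genes, 2146 higher and 1549 lower, against 2652 and 2478 in the main fit. Of the pathway genes 12 were higher and 6 lower in this count. It gave 3.28 for Sema3a, 3.67 for Sema3d and -0.27 for Sema4b. With each library left out, 4069 to 5358 genes were called, 12 to 17 pathway genes were higher and 9 to 14 lower.

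With the replicate number as a block, 4493 genes were called and Sema3c had 4.77. Deviations of same-numbered libraries correlated at 0.01, -0.28 and -0.33 for the 3 numbers, so no pairing by number was seen, and none is described. Low counts limit Sema3b, Sema3d and Sema7a in CD24- cells and the untested plexins.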

Other observations

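Pcsk6, a proprotein convertase of the family of furin, was no annotation in the deposited files. Reads that matched only its transcripts numbered 62, 69 and 52 in CD24- replicates 1, 2 and 3, and there were 0 in each of the 3 CD24+ libraries. With a floor of 3 reads over the CD24+ libraries together, its level was at least 92.2-fold lower in CD24+ cells, from 6.52 CPM over the CD24- libraries. Of the other convertases in the list, Pcsk5 had no reads in either count, and Furin and Pcsk7 did not pass the test on the deposited annotation, with log2 fold-changes of 0.11 and 0.16 (adjusted p = 0.224 and 0.286, edgeR). Pcsk6 was named after its values were seen.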
